A study of Mus musculus with 27 samples.

Results

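Embryoid bodies of the mouse line 19BL at day 11 of differentiation were compared with embryoid bodies of the same line at day 5. 19BL, called 4F, is an induced pluripotent stem cell line, that is, a line of body cells returned to the pluripotent state, here with 4 transcription factors. The comparison was made by the sample labels alone and holds 3 arrays at each day, 6 of the 27 in the series. The others were 4F at day 0 and, at days 11, 5 and 0, the line H9, called 3F, which was reprogrammed with 3 factors, and R1, a line of embryonic stem cells, with 3 arrays for each line and day. All lines were kept undifferentiated on feeder cells inactivated with mitomycin, with the cytokine LIF in the medium, and all day 11 and day 5 samples came from embryoid bodies in differentiation medium with 20% FBS and without LIF. Each origin is represented by 1 line, and the labels name neither the reprogramming factors nor the sex or clone of the line. The series asks about the cardiogenic potential of such lines. The labels call the 3 arrays of a group biological replicates without saying that they came from separate cultures. The p-values therefore measure the spread between arrays of a group, pooled over all 9 groups, and not that of the compared arrays alone.

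An embryoid body is an aggregate of pluripotent cells that, once LIF is withdrawn, differentiates without an added instruction. Its cells leave the naive state, pass through a state like the epiblast after implantation and then, in part, through one like the primitive streak, from which mesoderm and definitive endoderm arise. Mesoderm goes on to form beating heart muscle, smooth muscle, vessels, primitive red cells and connective tissue, while an outer layer resembles the yolk sac endoderm.

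Levels are log2 values of an Affymetrix expression array, with 1 probe set for each of 18193 genes, the one with the highest mean over all 27 arrays. A change is the day 11 mean minus the day 5 mean on that log2 scale, so that 1 is 2-fold, and its error is the standard error of a limma fit over all 27 arrays. A gene was said to rise or fall where its Benjamini-Hochberg adjusted p was under 0.05 and its change was at least 2-fold. The deposited table holds no detection calls, and the median of an array lay between 5.91 and 6.103, so a value of that size or lower may be background. Levels of different genes come from different probe sets and were not compared with each other. In RNA of whole embryoid bodies, fewer cells of a type and less of its RNA per cell cannot be told apart.

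The day 11 arrays differed from the day 5 arrays in an index of RNA quality. For Actb and Gapdh the array carries separate controls at the 3′ end and the 5′ end, and their mean difference is larger where copies end short of the 5′ end of a transcript. It was 2.69 ± 0.23 (log2) in 4F at day 11 and 1.62 ± 0.08 in 4F at day 5 (SD, n = 3 each). In R1 it was 1.94 ± 0.20 at day 11 and 1.66 ± 0.34 at day 5, and in 3F 1.55 ± 0.23 and 1.10 ± 0.08 (SD, n = 3 each). The index separated the days in 4F, and its part in any single change was not tested. Calls that ended or began with the index as a covariate, or when 1 array was left out, are named below with the change then found in brackets. The index of the 4F day 11 arrays, 2.44 to 2.89, lay above every other array, the highest at 2.16 in R1 at day 11. The covariate thus reaches beyond the other groups, and a call lost or gained with it cannot tell RNA quality from day. Some changes grew while the call ended, such as that of Mesp1. Replicate 3 of day 5 stood apart from its group, with a score of -19.28 on the first principal component (47.3% of the variance), against -43.48 and -44.20 for replicates 1 and 2. Replicate 3 of day 11 had the highest score of its group, 48.91, against 39.81 and 31.31. 

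Of the 18193 genes, 1212 rose (6.66%) and 1666 fell (9.16%) in 4F between the days, 2878 in all (15.8%), and the median change over all genes was -0.15. These shares are the background for every count of a gene list below. The split leaned to falls as deposited but depended on the scaling, with 1647 rises and 968 falls after cyclic loess, which raised the median change by 0.162, and 1473 rises and 1357 falls after quantile normalization. With the 3′ minus 5′ index as a covariate there were 1889 rises and 1534 falls, of which 891 rises and 820 falls were among those of the deposited values. In 53.4% of genes the 3 values of one day lay wholly above those of the other (16.2% higher at day 11, 37.2% lower), so that a lack of overlap alone is common here.

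The largest rises were of matrix, globin and inflammation genes. Col3a1, a chain of fibrillar collagen of soft tissue, read 12.98, 13.14 and 13.74 at day 11, against 5.86, 5.43 and 5.95 at day 5, a 186.0-fold rise (change 7.54 ± 0.59; adjusted p = 8.47e-09). Hbb-y, the beta-like globin of primitive red cells, read 12.09, 11.55 and 10.17 at day 11, against 4.75, 4.65 and 4.06 at day 5 (change 6.79 ± 0.89; adjusted p = 3.98e-06). Anxa1, a phospholipid-binding protein that limits inflammation, read 13.06, 12.83 and 13.90 at day 11, against 7.81, 7.59 and 6.74 at day 5 (change 5.88 ± 0.36). In all of these the groups were far apart, with the lowest day 11 value several log2 units above the highest day 5 value.

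After these came Ifi202b, an interferon-inducible DNA-binding protein (5.82 ± 0.27), the serine protease Prss23 (5.43 ± 0.31) and Ptn, a heparin-binding growth factor (5.26 ± 0.47). Ptgs2, the inducible cyclooxygenase of prostaglandin synthesis, read 10.59, 9.76 and 10.43 at day 11, against 5.20, 4.81 and 5.03 at day 5 (change 5.25 ± 0.29). Flrt2 (5.18 ± 0.45), a membrane protein that binds FGF receptors and latrophilins, and Filip1l (5.18 ± 0.49) rose as much. Igf2, an imprinted growth factor, reached 14.10, 14.06 and 14.41 at day 11, against 8.02, 8.33 and 11.48 at day 5, where replicate 3 was about 3 log2 units above the other two. The remaining large rises were of Postn (4.97 ± 0.71), Col1a2 (4.91 ± 0.55), the transcription factor Tshz1 (4.76 ± 0.57), the small proteoglycan Lum (4.71 ± 0.50) and Col1a1 (4.70 ± 0.63).

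The largest falls were led by a gene of the primed epiblast. Fgf5, the growth factor that defines that state, read 4.05, 4.66 and 4.47 at day 11, against 10.43, 10.56 and 9.09 at day 5, a 49.6-fold fall (change -5.63 ± 0.67; adjusted p = 1.26e-06). Vrtn, known for its effect on the number of vertebrae in pigs, fell by 4.61 ± 0.29 and the thyrotropin-releasing hormone gene Trh by 4.47 ± 0.48. Pim2, a kinase that favours survival, read 7.13, 7.01 and 7.13 at day 11, against 12.09, 12.04 and 10.27 at day 5. That all 3 day 11 values of these genes lay below all 3 at day 5 was a condition of the choice.

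Further falls were of Eomes (-4.21 ± 0.60), Pou3f1 (-4.10 ± 0.48), Mixl1 (-3.91 ± 0.86) and Lin28a (-3.90 ± 0.37), all described below. Irs4, an adaptor of insulin and IGF receptors, fell by 3.87 ± 0.44, and the carbonic anhydrases Car2 and Car3 by 3.82 ± 0.36 and 3.56 ± 0.57. L1td1, an RNA-binding protein of pluripotent cells, fell by 3.72 ± 0.51 and Pla2g1b, a secreted phospholipase, by 3.65 ± 0.37. Dnmt3b (-3.67 ± 0.33) and Otx2 (-3.45 ± 0.69) complete the 15.

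**Figure D1:**
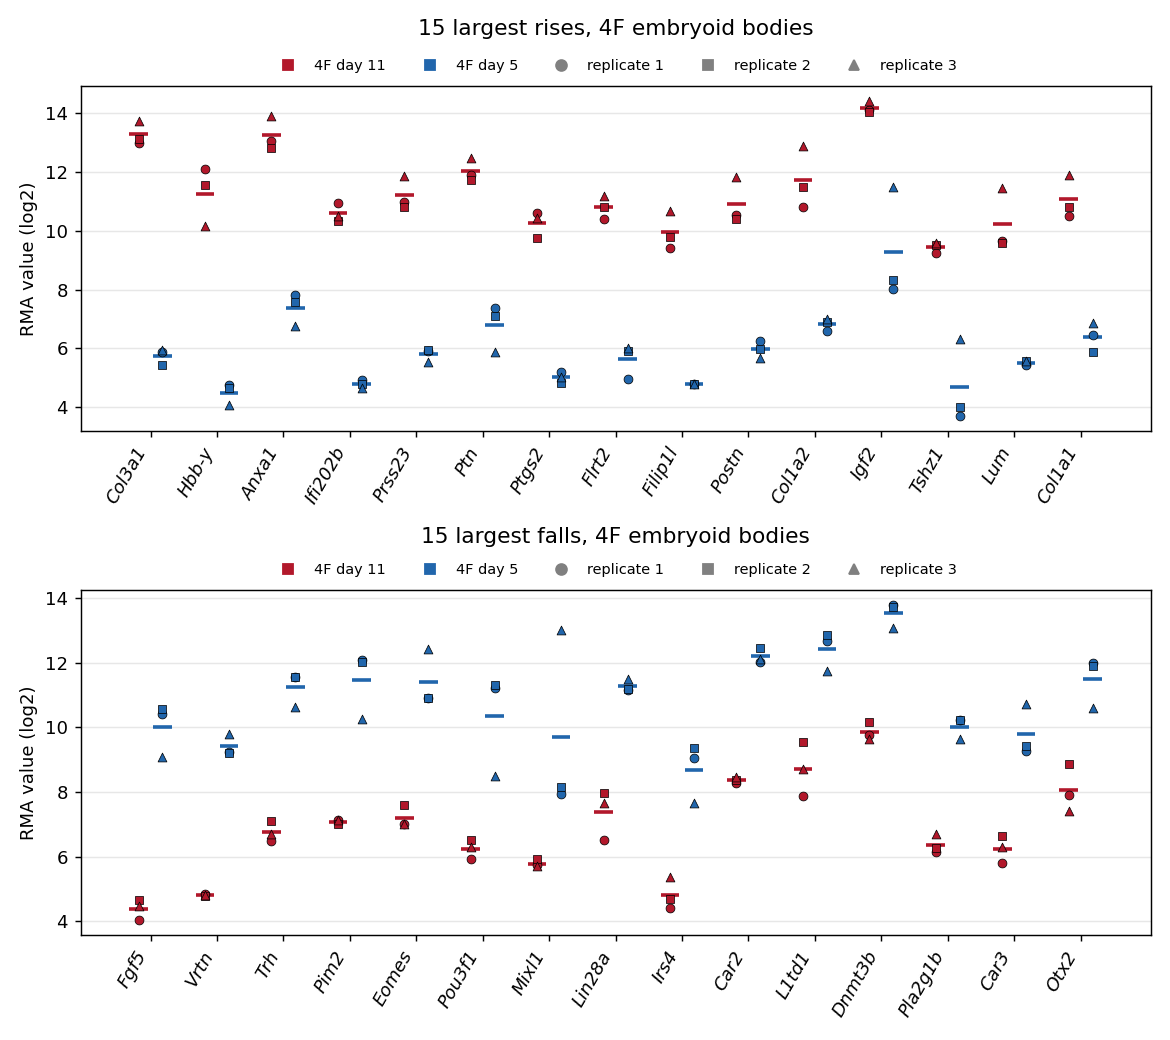
Log2 RMA values (y axis) of the 15 genes with the largest rises (top) and the 15 with the largest falls (bottom) in 4F, with day 11 in red to the left of day 5 in blue, 1 marker shape per replicate and a bar at each mean of 3 arrays. Igf2, Tshz1, Mixl1 and Pou3f1 show day 5 replicate 3 (triangle) away from the other two day 5 arrays.

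Genes of the pluripotent state fell. Of 25 measured members of a list of core and naive pluripotency genes, 17 fell and 8 were not called, with a median change of -1.53. Pou5f1, the transcription factor Oct4 without which the state is lost, read 10.14, 10.50 and 9.08 at day 11, against 12.62, 12.51 and 11.90 at day 5 (change -2.43 ± 0.52; adjusted p = 0.000682). Nanog read 9.03, 9.54 and 9.0 at day 11, against 11.24, 11.41 and 11.28 at day 5 (change -2.12 ± 0.48; adjusted p = 0.00121). Sox2, the partner of Oct4, read 9.25, 10.27 and 9.07 at day 11, against 12.27, 12.28 and 11.51 at day 5 (change -2.49 ± 0.44; adjusted p = 0.0001). The groups did not overlap for any of these 3 genes, but their day 11 values were still well above the array median.

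Lin28a, an RNA-binding protein that blocks the maturation of let-7, fell most in this list (change -3.90 ± 0.37), with 6.52, 7.98 and 7.67 at day 11, against 11.16, 11.19 and 11.51 at day 5. Nr0b1 fell by 2.87 ± 0.52, the Ras-like gene Eras by 2.41 ± 0.71 and the growth factor gene Gdf3 by 2.37 ± 0.43. Sall4 fell by 2.34 ± 0.32, Utf1 by 2.25 ± 0.37 and Fgf4 by 2.06 ± 0.50. The naive factors Klf2 (-1.61 ± 0.43), Klf5 (-1.45 ± 0.35), Prdm14 (-1.53 ± 0.40) and Tfcp2l1 (-1.45 ± 0.41) fell less on this scale, and 1 other probe set of Klf5 was called in the opposite direction. The call ended for Eras without day 5 replicates 1 or 2 (-1.94 and -2.06). After adjustment for the index, Nr0b1 (-2.57), Klf2 (-1.05), Klf5 (-0.71), Prdm14 (-1.59) and Tfcp2l1 (-1.24) were not called.

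Zfp42, the naive marker Rex1, was not called, with 11.55, 11.85 and 10.87 at day 11, against 12.27, 12.26 and 11.92 at day 5 (change -0.72 ± 0.47; adjusted p = 0.242). Tdgf1, the Nodal co-receptor Cripto, was also not called (change -1.34 ± 0.65; adjusted p = 0.108). Both had day 11 values below all their day 5 values. Zfp42 (-2.79) and Tdgf1 (-4.65) were called with the index in the fit.

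Primed epiblast genes fell as well, 12 of 14 measured, with a median change of -2.35. Pou3f1, the epiblast and neural factor Oct6, read 5.92, 6.53 and 6.30 at day 11, against 11.22, 11.32 and 8.51 at day 5 (change -4.10 ± 0.48; adjusted p = 9.66e-07). Otx2, which moves Oct4 to the enhancers of the primed state, read 7.90, 8.86 and 7.43 at day 11, against 12.01, 11.91 and 10.61 at day 5 (change -3.45 ± 0.69; adjusted p = 0.000409). For both genes the groups did not overlap, and day 5 replicate 3 was the lowest of its group. Zic5 fell by 2.74 ± 0.44, Zic2 by 2.46 ± 0.36, Sox3 by 2.24 ± 0.33, Lef1 by 1.58 ± 0.25 and Epha2 by 1.26 ± 0.31. Epha2 (-1.06) was not called with the index in the fit.

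Of 8 measured genes of the list of DNA methylation enzymes and their partners, 4 were lower at day 11. Dnmt3b and Dnmt3a, among these, are also in the primed epiblast list and were counted there. Dnmt3b, the de novo methyltransferase of the epiblast, read 9.77, 10.17 and 9.65 at day 11, against 13.78, 13.73 and 13.08 at day 5 (change -3.67 ± 0.33; adjusted p = 4.81e-08). Its catalytically inactive partner Dnmt3l fell by 2.89 ± 0.43, Uhrf1, which guides maintenance methylation, by 1.91 ± 0.27, and Dnmt3a by 1.81 ± 0.27, with 1 of its 5 probe sets called in the opposite direction. Tet1, which oxidises methylated cytosine, had a change of -1.0 ± 0.39 and missed the 2-fold limit. With the index as a covariate 2 of the 8 were called. Tet1 was called without day 11 replicate 2 or day 5 replicate 3 (-1.25 and -1.15). Once the index was a covariate, Uhrf1 (-0.93) and Dnmt3a (-1.21) were not called.

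**Figure D2:**
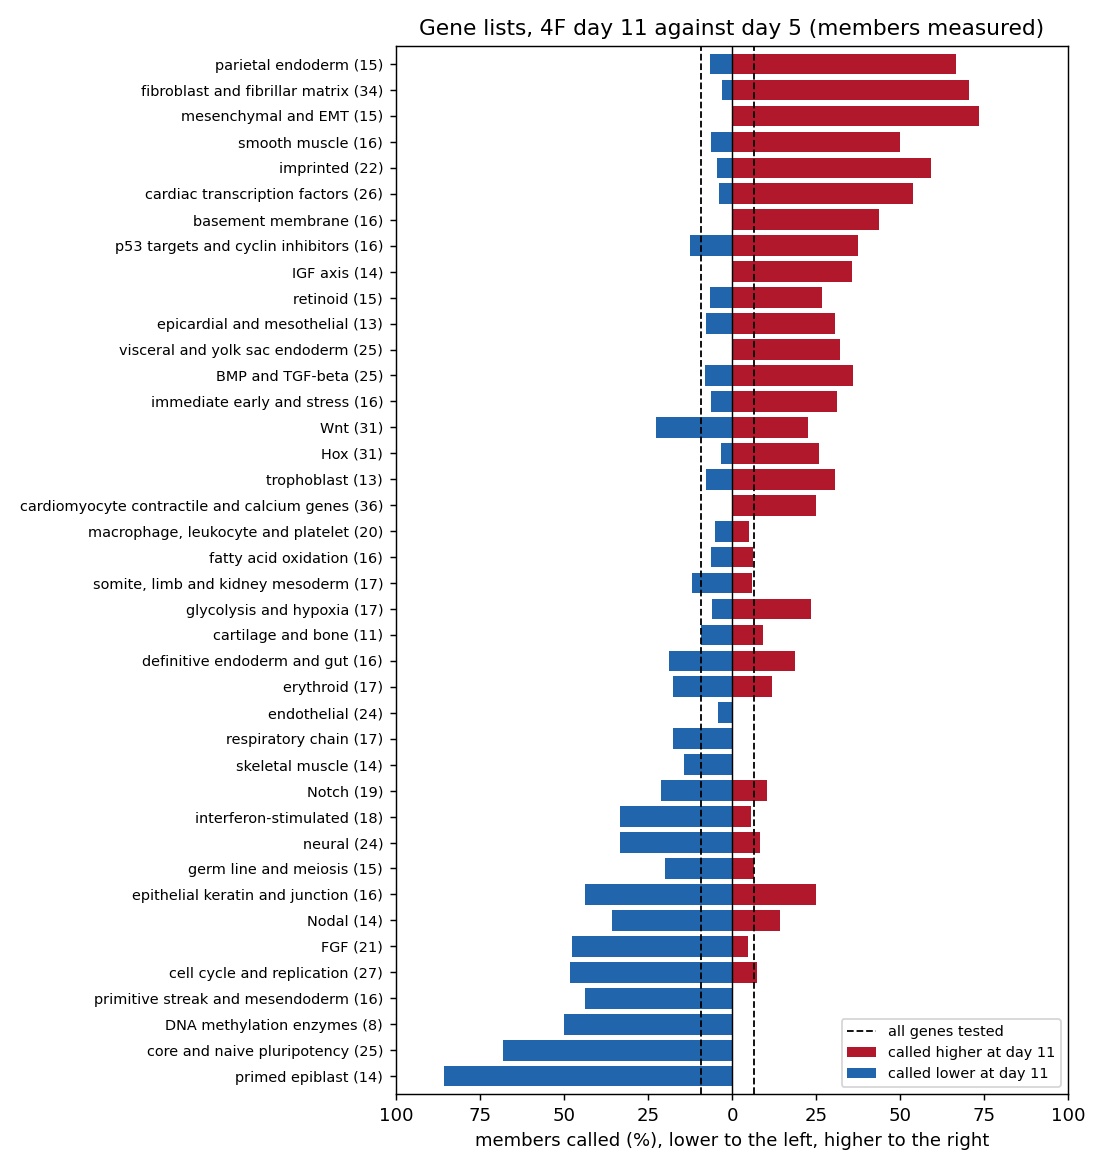
Share of the measured members of each of 40 gene lists (number in brackets) that was called higher (red, to the right) or lower (blue, to the left) in 4F at day 11 than at day 5, in percent, with dashed lines at the shares of all 18193 genes, 6.66% higher and 9.16% lower. Lists are ordered by their median change, with parietal endoderm and fibroblast genes at the top and pluripotency and primed epiblast genes at the bottom.

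Primitive streak genes were lower at day 11, but much of that rested on 1 day 5 array. Of 16 measured genes 7 fell, with a median change of -1.04. Without day 5 replicate 3, 3 fell, Eomes, Mixl1 and Sp5, and the median change was -0.39. With only the compared arrays in the fit, 3 fell. Mixl1, a homeobox gene of the streak, read 5.74, 5.94 and 5.70 at day 11, against 7.94, 8.15 and 13.02 at day 5 (change -3.91 ± 0.86; -2.25 without replicate 3, adjusted p = 0.00299). Mesp1, the first factor of cardiac mesoderm, read 6.93, 7.12 and 7.39 at day 11, against 7.95, 7.92 and 11.64 at day 5 (change -2.02 ± 0.71; -0.79 without replicate 3, adjusted p = 0.292). In both genes a single day 5 array held the high value, and the other two were within about 2.5 log2 units of day 11. Fitting the index as well, Mesp1 (-3.31) was not called.

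Eomes, which acts in both mesoderm and endoderm, did not depend on that array. It read 7.0, 7.60 and 7.02 at day 11, against 10.92, 10.90 and 12.44 at day 5 (change -4.21 ± 0.60; adjusted p = 9.27e-06). Sp5, a target of Wnt signalling, fell by 2.74 ± 0.54 (-2.04 without replicate 3, adjusted p = 0.00371). Evx1 (-1.83 ± 0.57), Wnt3 (-1.15 ± 0.41) and Fgf8 (-2.05 ± 0.55) fell with all arrays and were not called without replicate 3 (-0.71, -0.47 and -1.11). Foxa2, a factor of the node and endoderm, was not called (change -0.07 ± 0.39). Evx1 (-2.42) was not called in the fit with the index.

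Day 5 replicate 3 was also high for some mesoderm genes that did not fall. Kdr, the VEGF receptor of early blood and heart mesoderm, read 7.97, 7.69 and 8.71 at day 11, against 7.07, 7.06 and 9.79 at day 5, and was not called (change 0.15 ± 0.47), but rose without replicate 3 (change 1.06; adjusted p = 0.0112). Aplnr, the apelin receptor, read 5.65, 5.36 and 7.15 at day 11, against 4.57, 4.63 and 11.27 at day 5. Its change was -0.77 ± 1.0 with all arrays and not called, and 1.46 without replicate 3 (adjusted p = 0.00327), so its direction turned with 1 array. Pdgfra, a growth factor receptor of mesoderm and mesenchyme, read 10.67, 10.83 and 10.85 at day 11, against 6.35, 6.40 and 10.89 at day 5, and rose with or without that array (changes 2.90 and 4.41).

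**Figure D3:**
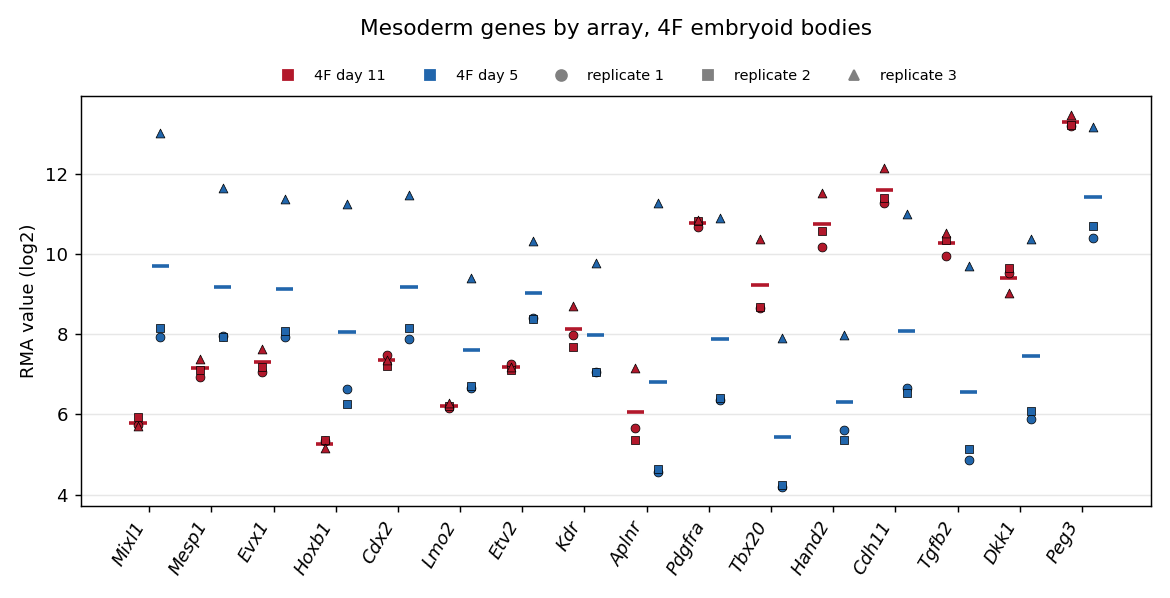
Log2 RMA values (y axis) of 16 genes, most of them of early mesoderm and its derivatives, in 4F. The 3 day 11 arrays are red (left) and the 3 day 5 arrays blue (right), with a bar at each mean. The genes were chosen to show day 5 replicate 3 (triangle), the highest day 5 array for each. It is at 13.02 for Mixl1 against 7.94 and 8.15. Prrx1, a mesenchyme gene not shown, was lowest in that array among those of day 5.

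Cardiac transcription factors rose. Of 26 measured, 14 rose and Foxh1, the cofactor of Nodal signalling, fell (change -2.83 ± 0.21), with a median change of 1.19. Hand2, a factor of the right ventricle and of limb and neural crest mesenchyme, read 10.17, 10.58 and 11.52 at day 11, against 5.61, 5.35 and 7.98 at day 5 (change 4.45 ± 0.45; adjusted p = 1.91e-07). Meis1, a partner of Hox and cardiac factors, read 9.49, 9.80 and 9.80 at day 11, against 5.47, 5.90 and 5.63 at day 5 (change 4.03 ± 0.21; adjusted p = 3.89e-11). Tbx20, a factor of the growing heart tube, read 8.66, 8.69 and 10.38 at day 11, against 4.19, 4.23 and 7.90 at day 5 (change 3.80 ± 0.66; adjusted p = 8.4e-05). The groups did not overlap for these genes, although day 5 replicate 3 approached the day 11 range for Tbx20.

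Tbx2, which holds back chamber muscle in the atrioventricular canal, rose by 2.84 ± 0.40, and Meis2 by 3.15 ± 0.43. Gata6, of mesoderm and endoderm, read 9.34, 9.55 and 10.01 at day 11, against 6.91, 6.51 and 8.76 at day 5 (change 2.24 ± 0.37). Isl1, which marks second heart field progenitors, read 8.72, 8.62 and 8.44 at day 11, against 5.98, 6.00 and 7.69 at day 5 (change 2.04 ± 0.37), and with the index as a covariate its change was 1.31 (adjusted p = 0.165). Smaller rises were those of Mef2a (1.74 ± 0.29), Prdm6 (1.72 ± 0.52), Tbx18 (1.64 ± 0.36), Gata5 (1.36 ± 0.40), Foxc2 (1.35 ± 0.33), Foxc1 (1.30 ± 0.30) and Myocd (1.07 ± 0.16), the co-activator of smooth muscle and heart genes. Without day 11 replicate 3, 12 of the 26 rose, and with the index as a covariate 10 rose. No call was made for Prdm6 without day 5 replicates 1 or 2 (1.2 and 1.14), Gata5 without day 11 replicate 3 (0.95) and Myocd without day 11 replicate 3 (0.89). After adjustment for the index, Prdm6 (2.15), Gata5 (1.86) and Foxc1 (1.08) were not called.

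Of the 26 factors 11 were not called, among them Nkx2-5, Gata4, Tbx5, Mef2c and Hand1. Nkx2-5 read 7.13, 6.94 and 7.18 at day 11, against 7.16, 7.16 and 7.02 at day 5 (change -0.03 ± 0.25; adjusted p = 0.941). Gata4 had a change of 0.05 ± 0.41, Tbx5 of 0.36 ± 0.15, Mef2c of 0.38 ± 0.32 and Hand1 of -0.45 ± 0.32. For Gata4 the third replicate was the high one on both days, with 5.97, 6.38 and 7.83 at day 11, against 5.98, 6.17 and 7.87 at day 5.

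Of 36 genes of the contractile apparatus and of calcium handling 9 rose and 27 were not called, with a median change of 0.02. Several of the 9 are not particular to heart muscle. Cryab, a small heat shock protein of muscle and lens, rose by 4.41 ± 0.49, Ankrd1, a sarcomere and stress protein, by 3.02 ± 0.47, and the tropomyosins Tpm1 and Tpm2 by 1.97 ± 0.37 and 1.29 ± 0.27. Tnni1, the slow skeletal troponin I that the embryonic heart also uses, read 8.28, 7.95 and 9.73 at day 11, against 6.08, 6.45 and 7.02 at day 5 (change 2.14 ± 0.45; adjusted p = 0.00064). Nppb, a natriuretic peptide, rose by 1.44 ± 0.33. Nppb (0.17) was not called with the index in the fit.

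Cardiac troponin T rested on 1 array. Tnnt2 read 5.40, 5.81 and 8.25 at day 11, against 4.45, 4.37 and 4.76 at day 5 (change 1.96 ± 0.65; adjusted p = 0.0207), and had a change of 1.08 without day 11 replicate 3 (adjusted p = 0.184). It also lost its call without day 5 replicates 1 or 2. Myom1, of the M band of the sarcomere, rose by 1.06 ± 0.35 with all arrays. Without day 11 replicate 3, 5 of the 36 rose. The main cardiac myosins and the cardiac actin were not called: Myh6 read 4.02, 4.57 and 4.35 at day 11, against 6.15, 6.36 and 5.32 at day 5 (change -1.63 ± 0.72; adjusted p = 0.0813, and 0.0403 with the replicate number as a block, where it fell). Actc1 read 6.42, 6.56 and 8.76 at day 11, against 7.36, 7.41 and 9.12 at day 5 (change -0.72 ± 0.76). The call was lost for Myom1 without day 11 replicate 3 or day 5 replicate 2 (0.72 and 0.94).

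Myh7 (-0.43 ± 0.40), Myl2 (-0.34 ± 0.68), Myl4 (0.56 ± 0.48) and Myl7 (0.24 ± 0.72) were not called either, nor were Tnni3 (-0.17 ± 0.33), Tnnc1 (1.18 ± 0.52), Ryr2 (0.89 ± 0.29), the calcium release channel, and Nppa (-0.02 ± 0.13). Myl2 read 4.72, 4.67 and 4.86 at day 11, against 5.00, 5.03 and 5.23 at day 5, and Tnni3 5.52, 5.52 and 5.10, against 5.52, 5.43 and 5.70, all below the array median. Ryr2 cleared the p threshold with a change under 2-fold. Tnnc1 was called without day 5 replicate 3 (1.60). Ryr2 (1.55) was called with the index in the fit.

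**Figure D4:**
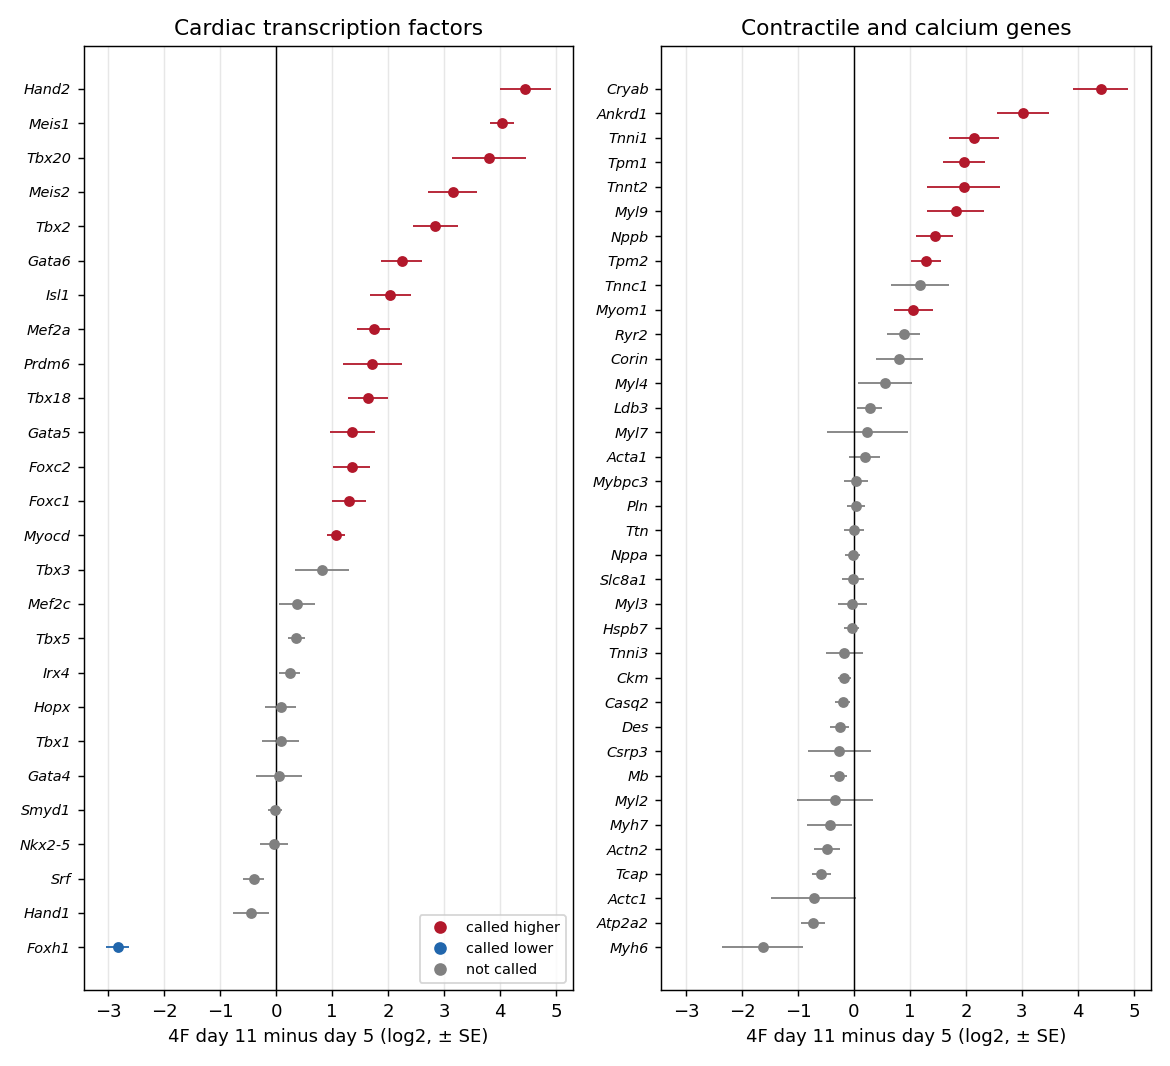
Change in 4F (day 11 minus day 5, log2, x axis, with its standard error) of 26 cardiac transcription factors (left) and 36 contractile and calcium genes (right), in red where called higher, in blue where called lower and in grey where not called. 14 of the factors are red, against 9 of the contractile genes.

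Smooth muscle genes rose, led by the actin and the actin-binding proteins that fibroblasts also make once activated. Of 16 measured, 8 rose and Cnn1 fell, with a median change of 1.32. With only the compared arrays in the fit, 5 rose. Acta2, smooth muscle actin, read 13.09, 13.50 and 14.36 at day 11, against 8.83, 8.52 and 9.59 at day 5 (change 4.67 ± 0.60; adjusted p = 3.05e-06). Tagln, the calponin-like protein SM22, read 11.56, 11.25 and 12.73 at day 11, against 7.37, 7.55 and 8.60 at day 5 (change 4.01 ± 0.38; adjusted p = 8.69e-08). Cald1, caldesmon, rose by 2.81 ± 0.31 and Cnn2, the calponin of non-muscle cells, by 1.62 ± 0.28. Cnn1, the calponin of differentiated smooth muscle, fell by 1.76 ± 0.31, a call that ended with the index as a covariate (change -1.06).

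The other 4 rises leaned on day 11 replicate 3. Myl9, a regulatory light chain, read 7.71, 8.41 and 10.61 at day 11, against 6.63, 6.86 and 7.78 at day 5 (change 1.82 ± 0.51, and 0.97 without replicate 3, adjusted p = 0.0762). Tpm2 (1.29 ± 0.27, 0.94 without it), Mylk (1.36 ± 0.53, 0.86), the kinase that starts contraction, and Itga8 (1.34 ± 0.50, 0.67) were likewise not called without that array, which left 4 of the 16. The calls of Mylk and Itga8 also ended without other single arrays, those of Mylk without day 5 replicates 2 or 3 or day 11 replicate 1, and that of Itga8 without day 5 replicates 1 or 2. Actg2, the actin of gut smooth muscle, showed the same array most clearly, with 5.55, 5.76 and 9.33 at day 11, against 5.19, 5.42 and 5.23 at day 5, and was not called (change 1.60 ± 0.64; adjusted p = 0.053). Actg2 (4.89) was called with the index in the fit.

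Many actin and contractile genes are switched on by serum response factor, which binds the CArG box, a palindromic element of 10 letters. Promoters of 300 bases around each gene start, most of them upstream (RefSeq, GRCm38.p6), were searched on both strands. Only the exact form of 10 letters was searched for: CC, then A or T alone, then GG. Variants of it and elements outside these bases were not counted. The element was in 2 of the 13 smooth muscle genes with a promoter in the table, Cnn2 and Myl9, in 7 of 33 contractile genes, and in 1.63% of 32841 promoters of the same length. The sequences show where it lies in 2 genes that rose and in Actc1, which was not called. Cnn2 is at chr10:79988350-79988649 (plus strand), Myl9 at chr2:156775214-156775513 (plus strand) and Actc1 at chr2:114052826-114053125 (minus strand), with the element in capitals.
Cnn2: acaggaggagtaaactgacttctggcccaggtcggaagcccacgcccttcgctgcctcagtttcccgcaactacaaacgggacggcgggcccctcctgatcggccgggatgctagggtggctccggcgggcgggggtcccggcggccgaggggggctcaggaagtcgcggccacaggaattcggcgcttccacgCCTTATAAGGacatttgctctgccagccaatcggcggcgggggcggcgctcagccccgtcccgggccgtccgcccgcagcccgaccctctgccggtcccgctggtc
Myl9: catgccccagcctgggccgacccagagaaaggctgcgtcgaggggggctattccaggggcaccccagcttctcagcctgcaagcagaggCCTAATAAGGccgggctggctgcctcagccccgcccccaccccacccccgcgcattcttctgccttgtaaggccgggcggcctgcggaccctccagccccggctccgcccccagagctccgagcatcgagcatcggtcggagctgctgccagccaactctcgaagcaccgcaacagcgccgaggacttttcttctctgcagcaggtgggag
Actc1: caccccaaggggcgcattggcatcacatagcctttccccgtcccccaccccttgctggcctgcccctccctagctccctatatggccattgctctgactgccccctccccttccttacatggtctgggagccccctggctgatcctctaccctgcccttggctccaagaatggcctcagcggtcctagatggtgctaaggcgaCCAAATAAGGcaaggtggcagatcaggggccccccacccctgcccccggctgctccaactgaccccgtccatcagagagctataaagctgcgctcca
Counted from the gene start, the element runs from -56 to -47 in Cnn2, from -161 to -152 in Myl9 and from -47 to -38 in Actc1. Srf itself was not called (change -0.40 ± 0.19). The match is a description of these letters and does not show binding in these cells.

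Genes of mesenchyme and fibrillar matrix rose. Of 34 measured genes of the fibroblast and fibrillar matrix list, 24 rose and Thy1 fell, with a median change of 2.22, and of 15 genes of mesenchyme and of the epithelial to mesenchymal transition 11 rose, with a median of 1.97. Without day 11 replicate 3 the counts were 22 and 10, and without day 5 replicate 3 they were 24 and 12. Col1a1, the main collagen of bone and skin, read 10.52, 10.82 and 11.90 at day 11, against 6.44, 5.86 and 6.85 at day 5 (change 4.70 ± 0.63; adjusted p = 5.03e-06). Tnc, a matrix protein of growing and healing tissue, rose by 4.54 ± 0.57, Col5a2 by 4.54 ± 0.47, Col5a1 by 3.47 ± 0.51 and Vcan by 2.24 ± 0.39. The proteoglycans Dcn and Ogn rose by 3.52 ± 0.41 and 4.15 ± 0.64.

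Prrx1, a homeobox factor of limb and facial mesenchyme, read 9.52, 9.79 and 10.18 at day 11, against 5.64, 5.23 and 4.63 at day 5 (change 4.66 ± 0.41; adjusted p = 4.06e-08). Snai2, a repressor of epithelial genes, read 12.03, 11.90 and 12.32 at day 11, against 6.97, 7.06 and 8.51 at day 5 (change 4.57 ± 0.49; adjusted p = 3.73e-07). Cdh11, the cadherin of mesenchyme, rose by 3.54 ± 0.69, Twist2 by 3.01 ± 0.50, Zeb1 by 2.21 ± 0.33, Twist1 by 1.97 ± 0.39 and Vim by 1.53 ± 0.33. Cdh2, N-cadherin, read 9.84, 9.76 and 10.68 at day 11, against 7.34, 7.54 and 10.11 at day 5, where replicate 3 overlapped the day 11 values (change 1.76 ± 0.47). Epithelial genes moved the other way in part, with 7 of 16 lower and 4 higher. The limits were not passed by Cdh2 without day 5 replicate 1 (1.27).

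Cdh1, E-cadherin, read 10.05, 10.67 and 9.50 at day 11, against 12.02, 11.87 and 11.06 at day 5 (change -1.58 ± 0.37; adjusted p = 0.00161). Epcam fell by 2.27 ± 0.40, the splicing regulator Esrp1 by 2.0 ± 0.44, Rab25 by 1.72 ± 0.29, Cldn6 by 1.68 ± 0.35, Grhl2 by 1.34 ± 0.35 and Ocln by 1.31 ± 0.36. The 4 that rose were the keratins Krt19 (2.88 ± 0.43), Krt7 (1.82 ± 0.22) and Krt18 (1.41 ± 0.50) and the claudin Cldn4 (1.10 ± 0.31). Krt8, the partner of Krt18, read 11.97, 12.40 and 12.12 at day 11, against 10.00, 9.91 and 12.59 at day 5, and was not called (change 1.33 ± 0.55). The test was not passed by Grhl2 without day 11 replicate 3 (-0.95), Ocln without day 5 replicate 1 (-1.0) and Krt18 without day 11 replicates 1 or 2 or day 5 replicates 1 or 2 (1.02 to 1.38). Krt8 was called without day 5 replicate 3 (2.21). Once the index was a covariate, Krt18 (0.86) and Cldn4 (-0.23) were not called.

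Since the lines were grown on feeder cells before differentiation, the same fibroblast genes were read at day 0. Col3a1 had 10.52, 9.17 and 9.66 on the day 0 arrays of 4F, Acta2 14.78, 13.69 and 14.10, Anxa1 14.18, 13.63 and 13.97 and Thy1 10.22, 9.46 and 9.59. Acta2 and Anxa1 at day 0 were as high as at day 11 or higher, and all 4 genes were lower at day 5. The summed linear level of the 34 fibroblast genes was between 15.29 and 16.36 (log2) at day 11 and between 12.98 and 14.34 at day 5, and no value on this scale is 0. Thy1, a surface marker of fibroblasts, was the member that fell, with 5.68, 5.93 and 5.64 at day 11, against 7.72, 7.59 and 7.31 at day 5 (change -1.79 ± 0.21). The part of residual feeder cells in the day 11 values was not tested.

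Basement membrane genes rose in 7 of 16 (11 with the index as a covariate) and parietal endoderm genes in 10 of 15, with medians of 0.88 and 2.36. The lists share genes of laminin and type IV collagen, and Cryab of the contractile list is also in the parietal endoderm list. The count of 10 therefore does not single out parietal endoderm. Plat, tissue plasminogen activator, read 10.36, 10.81 and 12.07 at day 11, against 7.11, 6.93 and 6.73 at day 5 (change 4.16 ± 0.37; adjusted p = 4.06e-08). Col4a1 read 11.10, 12.36 and 12.80 at day 11, against 9.29, 9.35 and 10.53 at day 5 (change 2.36 ± 0.42), and Col4a2 rose by 2.55 ± 0.49, Lama1 by 2.34 ± 0.49, Nid1 by 2.62 ± 0.39, Sparc by 2.41 ± 0.33 and Serpinh1, the collagen chaperone, by 2.74 ± 0.37. Pth1r, a receptor that parietal endoderm carries, rose by 1.71 ± 0.31, while Fst, an activin antagonist, fell by 1.49 ± 0.53. Col4a5 (3.30 ± 0.38), Agrn (1.79 ± 0.24) and Lamb2 (1.08 ± 0.39) also rose. The call ended for Fst without day 11 replicates 1 or 2 or day 5 replicate 3 (-1.52 to -1.13) and Lamb2 without day 11 replicate 3 or day 5 replicates 1 or 2 (0.79 to 1.11).

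Visceral and yolk sac endoderm genes, which encode the serum proteins that the yolk sac secretes before the liver does, rose in 8 of 25, with a median change of 0.24. Afp, alpha-fetoprotein, read 10.32, 10.48 and 10.54 at day 11, against 6.39, 6.56 and 7.04 at day 5 (change 3.78 ± 0.38; adjusted p = 1.77e-07). Ttr, transthyretin, read 11.33, 11.31 and 11.54 at day 11, against 8.77, 9.27 and 8.30 at day 5 (change 2.62 ± 0.70), and Rbp4, the retinol carrier, rose by 3.30 ± 0.46. The apolipoproteins Apoc2, Apob and Apoa1 rose by 3.15 ± 0.31, 2.07 ± 0.32 and 1.34 ± 0.43, the endocytic receptor Cubn by 1.45 ± 0.46 and the factor Foxa1 by 1.11 ± 0.39. With the index as a covariate 3 of the 25 were called. No call was made for Apoa1 without day 11 replicate 3 or day 5 replicate 1 (1.25 and 1.28), Cubn without day 11 replicate 3 or day 5 replicate 3 (0.94 and 1.13) and Foxa1 without day 11 replicate 2 or day 5 replicate 1 (0.86 and 0.97). Fitting the index as well, Ttr (1.44), Rbp4 (1.79), Apob (0.92), Apoa1 (0.02), Cubn (1.81) and Foxa1 (-0.48) were not called.

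Among definitive endoderm and gut genes 3 rose and 3 fell of 16. Sox17, a factor of endoderm and of endothelium, read 8.87, 9.82 and 10.06 at day 11, against 6.60, 6.69 and 8.59 at day 5 (change 2.29 ± 0.43; adjusted p = 0.000186). Spink1, a trypsin inhibitor, rose by 2.31 ± 0.49 and Tmprss2, a membrane protease, by 1.71 ± 0.39. With the index as a covariate these 3 were not called, with changes of 1.61, 0.43 and -0.52, the last in the opposite direction. Epcam and Cldn6 fell, and so did Cdx2 (-1.82 ± 0.60), which was high in day 5 replicate 3 alone. The call was lost for Cdx2 without day 11 replicate 2 or day 5 replicate 3 (-1.75 and -0.67). Cdx2 (-1.07) was not called in the fit with the index.

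Blood and vessel genes showed little beyond the embryonic globins. Of 17 erythroid genes 2 rose and 3 fell. Hbb-bh1, another beta-like globin of primitive red cells, read 12.52, 11.79 and 9.89 at day 11, against 7.45, 7.08 and 5.99 at day 5 (change 4.56 ± 1.22; adjusted p = 0.00482, and 0.226 with the index as a covariate). Hba-x, their alpha-like partner, was not called, with 6.51, 6.37 and 5.93 at day 11, against 5.74, 5.98 and 5.93 at day 5 (change 0.39 ± 0.57). Both beta-like genes were lowest in day 11 replicate 3, the array highest for muscle and matrix genes.

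Erythroid promoters can carry CACCC and CCAAT elements, bound by Klf1 and by CCAAT-binding factors. The promoter of Hbb-y, the globin with the largest rise, is shown with both in capitals, CACCC from -111 to -107 and CCAAT from -83 to -79 from the gene start. It lies at chr7:103853158-103853457 (minus strand; RefSeq, GRCm38.p6).
Hbb-y: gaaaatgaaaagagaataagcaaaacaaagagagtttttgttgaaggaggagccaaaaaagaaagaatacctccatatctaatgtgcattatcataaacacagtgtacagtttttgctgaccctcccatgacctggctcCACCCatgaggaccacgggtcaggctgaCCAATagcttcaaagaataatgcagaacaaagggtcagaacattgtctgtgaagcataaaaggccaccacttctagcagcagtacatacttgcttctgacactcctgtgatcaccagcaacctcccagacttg
Read on either strand, CACCC was in 57.5% of 32841 promoters of this length, CCAAT in 37.4% and both in 20.9%, so that these short letters are common. Of the 12 erythroid genes with a promoter searched, 10 had CACCC and 4 had CCAAT. Klf1 itself had a change of -0.46 ± 0.28 and was not called.

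The other erythroid members did not follow the globins. Car2 fell by 3.82 ± 0.36, Rhd, of the Rh blood group complex, by 1.19 ± 0.18, and Lmo2, a cofactor of early blood, read 6.16, 6.21 and 6.28 at day 11, against 6.66, 6.72 and 9.41 at day 5 (change -1.38 ± 0.53). The fall of Lmo2 was called with all arrays and not without day 5 replicate 3 (-0.47), without any 1 of the day 11 arrays, or with the replicate number as a block (adjusted p = 0.0543). Gata1 had a change of -0.45 ± 0.29 and Alas2, of haem synthesis, one of 0.01 ± 0.28, and neither was called. After adjustment for the index, Lmo2 (-1.47) was not called.

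Of 24 endothelial genes only Etv2, the factor that starts the lineage, was called, and it fell (change -1.85 ± 0.44; adjusted p = 0.00199). Cdh5, VE-cadherin, read 5.66, 5.19 and 6.46 at day 11, against 5.30, 5.04 and 5.05 at day 5 (change 0.64 ± 0.31), Pecam1 5.24, 5.10 and 5.23, against 5.46, 5.19 and 5.52, and Tek 4.70, 4.90 and 5.53, against 5.15, 5.49 and 5.19. All of these values were near or below the array median. With the index as a covariate 5 members were called higher, Tek among them at 2.84 (adjusted p = 0.00699), in the opposite direction to its change of -0.23 ± 0.58 without it. Among 20 macrophage, leukocyte and platelet genes Ppbp, a platelet chemokine, rose by 2.0 ± 0.35 and Coro1a, an actin-binding protein of leukocytes, fell by 2.42 ± 0.46. Cdh5 (1.75) was called with the index in the fit.

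Epicardial and mesothelial genes rose in 4 of 13, and in 2 without day 5 replicate 2. The 4 were Krt19, Bnc1 (1.84 ± 0.53), Tbx18 and Tcf21 (1.35 ± 0.52), while Lrrn4, a mesothelial membrane protein, fell by 2.04 ± 0.35. Tcf21, a factor of epicardium and of other mesenchyme, read 5.49, 6.22 and 6.33 at day 11, against 4.61, 4.30 and 5.09 at day 5. Its call ended with the replicate number as a block (adjusted p = 0.0698). Wt1 had a change of 0.79 ± 0.24 under the 2-fold limit, and the mesothelial marker Upk3b one of 0.08 ± 0.36. The limits were not passed by Bnc1 without day 11 replicate 1 or day 5 replicate 2 (1.42 and 1.48) and Tcf21 without day 11 replicates 2 or 3 or day 5 replicates 1 or 2 (1.17 to 1.32). Bnc1 (1.65) and Tcf21 (1.84) were not called with the index in the fit. Wt1 (1.65) was called with that covariate.

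Neural genes fell in 8 of 24 and rose in 2. Nefl and Nefm, neurofilament subunits, fell by 3.29 ± 0.45 and 2.50 ± 0.30, Foxd3, of the epiblast and the neural crest, by 2.39 ± 0.40, and the microtubule regulator Stmn2 by 2.30 ± 0.29. Sox3 and Fabp7 (-1.70 ± 0.43), of neural progenitors, fell, as did Neurod1 (-1.21 ± 0.41) and En2 (-1.03 ± 0.21). Ncam1, which mesenchyme also carries, rose by 2.49 ± 0.38 and Zic1 by 1.63 ± 0.35. Pax6, of the neural plate, was not called (change -0.60 ± 0.38). The test was not passed by Neurod1 without day 11 replicates 1 or 2 or day 5 replicates 1 or 2 (-1.15 to -0.74) and En2 without day 11 replicate 1 or day 5 replicates 1 or 2 (-0.98 to -0.80). Once the index was a covariate, Neurod1 (-0.83) and En2 (-0.56) were not called.

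Trophoblast genes rose in 4 of 13, with Plac1 (2.86 ± 0.66), Gata3 (2.35 ± 0.50), Krt7 and Krt18, and Cdx2 fell. Skeletal muscle genes fell in 2 of 14, Actn3 (-1.85 ± 0.31) and Myh3 (-1.17 ± 0.17). The median level of these 14 was 4.94 to 5.31 in the day 11 arrays and 5.32 to 5.47 in the day 5 arrays, below the array median. Of 11 cartilage and bone genes Col9a1 rose (1.31 ± 0.44) and Alpl, the phosphatase that pluripotent cells also carry, fell (-1.5 ± 0.27). Germ line genes fell in 3 of 15, Tdrd12 (-1.99 ± 0.39), Sycp3 (-1.25 ± 0.43) and Ddx4 (-1.12 ± 0.28), and Stra8 rose (1.92 ± 0.30). Morc1 was not called (-1.07 ± 0.58; adjusted p = 0.152) but fell with the replicate number as a block (adjusted p = 0.0489). The call ended for Col9a1 without day 11 replicates 1 or 2 or day 5 replicates 1 or 2 (0.93 to 1.29) and Sycp3 without day 11 replicate 3 or day 5 replicates 1 or 2 (-1.22 to -0.87). Fitting the index as well, Actn3 (-1.28), Myh3 (-0.64), Col9a1 (0.50), Alpl (-0.73) and Stra8 (0.98) were not called. Morc1 (-3.77) was called with that covariate.

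Hox genes, which are switched on in order along each cluster as the trunk grows, rose in 8 of 31 measured, and Hoxb1 fell. Hoxa9 read 11.60, 11.41 and 10.46 at day 11, against 6.12, 6.14 and 8.61 at day 5 (change 4.2 ± 0.68; adjusted p = 4.19e-05). Hoxd13, of the distal limb and the genital region, read 8.96, 9.88 and 9.31 at day 11, against 6.64, 6.26 and 6.99 at day 5 (change 2.75 ± 0.25; adjusted p = 6.68e-08). Hoxc8 rose by 3.09 ± 0.59, Hoxc10 by 3.01 ± 0.30, Hoxd10 by 2.63 ± 0.31, Hoxa10 by 2.63 ± 0.39, Hoxa11 by 1.45 ± 0.26 and Hoxc4, the most anterior of the 8, by 1.28 ± 0.26. Hoxb1, an early and anterior gene, read 5.33, 5.35 and 5.15 at day 11, against 6.64, 6.25 and 11.25 at day 5 (change -2.77 ± 0.74). Day 5 replicate 3 was by far the highest array for Hoxb1, and the change without it was -1.17. Tbx4, the T-box gene of hindlimb and allantois, rose by 4.21 ± 0.75 in a list of somite, limb and kidney mesoderm where Dll1 (-1.43 ± 0.37) and Tcf15 (-2.09 ± 0.30) fell. No call was made for Dll1 without day 5 replicate 3 (-0.88). Hoxb1 (-3.56) was not called in the fit with the index.

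Imprinted genes, most of which act on growth of the embryo and placenta, rose in 13 of 22, with a median change of 1.27, and Phlda2, which restrains the placenta, fell (-1.27 ± 0.43). Igf2 led the list (change 4.91 ± 0.58; adjusted p = 1.06e-06). Dlk1, a Notch-like ligand of progenitors, read 11.70, 11.65 and 12.71 at day 11, against 6.43, 6.80 and 9.42 at day 5 (change 4.47 ± 0.56; adjusted p = 2.29e-06). Plagl1, a zinc finger factor, rose by 3.51 ± 0.35, the noncoding RNA Meg3 by 2.77 ± 0.45, the cyclin inhibitor Cdkn1c by 2.25 ± 0.38, Peg3 by 1.87 ± 0.44, Sgce by 1.85 ± 0.31, Mest by 1.82 ± 0.25, Ndn by 1.64 ± 0.26 and Zim1 by 1.31 ± 0.16. Peg12 (1.24 ± 0.35) and Igf2r (1.13 ± 0.42), the receptor that clears Igf2, rose least. The call was lost for Phlda2 without day 11 replicates 1 or 2 or day 5 replicate 3 (-1.2 to -0.44), Peg12 without day 11 replicate 3 or day 5 replicates 1 or 2 (0.96 to 0.98) and Igf2r without day 11 replicate 3 or day 5 replicates 1, 2 or 3 (0.66 to 1.19). After adjustment for the index, Phlda2 (-1.88) and Meg3 (1.57) were not called.

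Within the IGF axis 5 of 14 genes rose, and 3 without day 5 replicate 1. Beside Igf2 and Igf2r these were the binding proteins Igfbp7 (2.81 ± 0.48), Igfbp1 (2.77 ± 0.35) and Igfbp4 (1.26 ± 0.30). Igfbp1, a hepatic and decidual binding protein, read 6.93, 7.23 and 7.36 at day 11, against 4.54, 4.30 and 4.37 at day 5. The signalling receptor Igf1r had a change of 0.64 ± 0.33 and was not called. With the mean of probe sets, 6 of the 14 rose and 1 fell. Over all probe sets, 8 of the 14 genes had one called higher and 2 had one called lower. The limits were not passed by Igfbp4 without day 5 replicate 1 (0.91). Igf1r (2.01) was called with the index in the fit.

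Ligands and antagonists of BMP and TGF-beta signalling rose in 9 of 25 genes and fell in 2. Of the ligands, Tgfb2 read 9.95, 10.35 and 10.52 at day 11, against 4.86, 5.14 and 9.71 at day 5 (change 3.70 ± 0.77; adjusted p = 0.000543). Bmp2 read 8.61, 8.40 and 8.10 at day 11, against 5.09, 5.34 and 7.89 at day 5 (change 2.26 ± 0.49; adjusted p = 0.000742), and Bmp5 8.19, 8.37 and 7.31, against 5.29, 4.90 and 6.85 (change 2.27 ± 0.49). Day 5 replicate 3 was the highest of its group in all 3 ligands. Bmp4 rose by 1.65 ± 0.43, Tgfb3 by 1.91 ± 0.32 and Inhba, a subunit of activin, by 1.24 ± 0.33. The test was not passed by Inhba without day 11 replicate 3 (0.89). Bmp2 (1.84) and Bmp5 (1.32) were not called with the index in the fit.

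Tgfbi, a matrix protein that TGF-beta induces, read 11.33, 11.24 and 11.39 at day 11, against 7.17, 6.95 and 7.53 at day 5 (change 4.11 ± 0.36; adjusted p = 4.06e-08). The inhibitory Smad6 rose by 1.79 ± 0.56 and the decoy receptor Bambi by 1.67 ± 0.38. Id1, a direct target of BMP, fell by 1.57 ± 0.19, with 8.74, 8.39 and 8.95 at day 11, against 10.21, 10.21 and 10.36 at day 5, and Fst fell as given above. Msx2, another BMP target, was not called (change 0.51 ± 0.58), but rose without day 5 replicate 3 (1.77; adjusted p = 1.07e-05). The call ended for Smad6 without day 11 replicate 3 or day 5 replicates 1 or 2 (1.25 to 1.42).

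Nodal signalling, which keeps the epiblast and patterns the streak, had 5 lower and 2 higher of 14 genes. Lefty2, its inhibitor and target, read 7.50, 8.64 and 7.06 at day 11, against 9.84, 10.03 and 9.88 at day 5 (change -2.19 ± 0.45; adjusted p = 0.000555). Nodal read 10.01, 10.79 and 9.49 at day 11, against 11.43, 11.43 and 11.47 at day 5 (change -1.34 ± 0.45; adjusted p = 0.0214), a call that ended without day 5 replicate 2 or without day 11 replicates 1 or 3. Foxh1, Gdf3 and the receptor Acvr2b (-1.56 ± 0.26) fell. Furin, which cuts the Nodal precursor among many others, rose by 1.64 ± 0.27 and Smad3 by 1.03 ± 0.31. No call was made for Smad3 without day 11 replicate 3 or day 5 replicates 1 or 2 (0.82 to 0.98).

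FGF genes fell in 10 of 21, with a median change of -0.98. Fgf15 read 6.60, 7.75 and 6.68 at day 11, against 9.60, 9.77 and 9.43 at day 5 (change -2.59 ± 0.33; adjusted p = 2.57e-06), and Fgf17 fell by 1.35 ± 0.25. Fgf3 (-1.86 ± 0.51) and Fgf8 fell as well. Targets and feedback inhibitors of the pathway fell too, with Etv5 at -3.28 ± 0.41, Il17rd at -1.55 ± 0.28, Dusp6 at -1.38 ± 0.29 and Spry2 at -1.12 ± 0.17. The receptor Fgfr2 rose, with 9.87, 9.91 and 8.78 at day 11, against 7.87, 8.02 and 7.76 at day 5 (change 1.64 ± 0.32; adjusted p = 0.000263). The call was lost for Fgf3 without day 5 replicate 3 (-0.83) and Spry2 without day 5 replicate 1 (-0.98). Once the index was a covariate, Fgf3 (-1.46), Il17rd (-0.71) and Dusp6 (-1.22) were not called.

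Wnt genes moved in both directions, 7 higher and 7 lower of 31. Dkk2, a secreted antagonist, read 9.20, 9.46 and 9.23 at day 11, against 4.94, 4.85 and 4.89 at day 5 (change 4.40 ± 0.26; adjusted p = 1.05e-10). The ligand Wnt2 rose by 2.34 ± 0.42, Wnt4 by 1.44 ± 0.36, the receptor Fzd1 by 2.25 ± 0.36, and the antagonist Sfrp1 by 1.90 ± 0.32. Dkk1 read 9.54, 9.65 and 9.02 at day 11, against 5.88, 6.08 and 10.39 at day 5 (change 1.95 ± 0.72), where replicate 3 of day 5 was above all day 11 arrays. Of the ligands that fell, Wnt8a (-2.56 ± 0.34) kept its call without that array, and Wnt3 and Wnt5b (-1.62 ± 0.56) did not. Without day 11 replicate 1 or 3, 4 of the 31 fell. Without day 5 replicate 3, 11 rose and 5 fell, Wnt5a among those that rose (2.58; adjusted p = 7.85e-05). The limits were not passed by Dkk1 without day 11 replicates 1 or 2 or day 5 replicates 1 or 2 (1.17 to 1.88) and Wnt5b without day 11 replicates 1 or 3 or day 5 replicate 3 (-1.62 to -0.46). Fitting the index as well, Wnt4 (0.46), Dkk1 (0.57) and Wnt5b (-2.43) were not called.

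Of 19 Notch genes 2 rose, Jag1 (1.08 ± 0.29) and Notch1 (1.05 ± 0.24), and 4 fell, Dll3 (-2.60 ± 0.52), Dll1, Nrarp (-1.12 ± 0.32) and Mfng (-1.02 ± 0.21). Without day 5 replicate 3, 5 rose and 2 fell. Of 15 retinoid genes 4 rose. Rarb, a receptor that retinoic acid itself induces, read 7.59, 8.17 and 8.38 at day 11, against 4.59, 3.99 and 4.16 at day 5 (change 3.80 ± 0.31; adjusted p = 1.27e-08). Rdh10, which makes retinal, rose by 1.80 ± 0.22, and Rbp4 and Stra8 as given above. Rarg fell (-1.08 ± 0.29), with a change of 0.41 once the index was a covariate. The test was not passed by Notch1 without day 5 replicates 1 or 2 (0.83 and 0.88), Nrarp without day 5 replicate 3 (-0.78), Mfng without day 11 replicate 3 or day 5 replicates 1 or 2 (-0.99 to -0.87) and Rarg without day 11 replicate 1 or day 5 replicate 2 (-0.84 and -0.95). Jag1 (1.14) was not called in the fit with the index.

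Genes of the cell cycle and of DNA replication fell in 13 of 27, with a median change of -0.99, and 2 rose. Mcm3, of the helicase that unwinds DNA at origins, read 10.03, 11.07 and 10.89 at day 11, against 12.80, 12.80 and 12.70 at day 5 (change -2.10 ± 0.24; adjusted p = 9.5e-07). Plk1, a mitotic kinase, read 8.32, 9.12 and 9.09 at day 11, against 10.87, 11.13 and 11.01 at day 5 (change -2.16 ± 0.25; adjusted p = 8.61e-07). Mcm2 fell by 1.88 ± 0.21, Mcm4 by 1.73 ± 0.24, Mcm6 by 1.57 ± 0.22, Ccna2 by 1.47 ± 0.20, Aurkb by 1.44 ± 0.25 and Pcna by 1.34 ± 0.18. For Aurka (-1.73 ± 0.22) 1 of 2 probe sets was called in the opposite direction. The 2 that rose were Tyms (1.92 ± 0.35) and Ccne2 (1.29 ± 0.40), and with the index as a covariate 9 of the 27 fell and 1 rose. The call ended for Ccne2 without day 11 replicate 1 or day 5 replicate 2 (1.18 and 1.08). After adjustment for the index, Plk1 (-0.89), Mcm4 (-0.72), Mcm6 (-0.93), Aurkb (-0.79), Pcna (-0.89), Tyms (0.40) and Ccne2 (-0.62) were not called.

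Cyclin inhibitors and targets of p53 rose in 6 of 16 and fell in 2, and with the index as a covariate rose in 10. Cdkn2b, which blocks Cdk4 and Cdk6 and which TGF-beta induces, read 10.49, 10.69 and 11.75 at day 11, against 7.21, 6.80 and 6.90 at day 5 (change 4.00 ± 0.26; adjusted p = 7.18e-10). Cdkn1a, p21, read 12.53, 12.80 and 13.46 at day 11, against 10.93, 10.99 and 11.99 at day 5 (change 1.62 ± 0.31; adjusted p = 0.000208). Mdm2, the ubiquitin ligase of p53 and its target, rose by 1.68 ± 0.13, Perp by 1.64 ± 0.26 and Ccng1 by 1.24 ± 0.18, while the death gene Pmaip1 (-1.25 ± 0.22) and Sesn2 (-1.03 ± 0.23) fell. No call was made for Sesn2 without day 11 replicate 1 or day 5 replicate 2 (-0.87 and -0.88). Perp (0.29), Pmaip1 (-0.64) and Sesn2 (0.17) were not called with the index in the fit.

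Of 17 glycolysis and hypoxia genes 4 rose, the growth factor of vessels Vegfa (3.12 ± 0.31), the vasodilator peptide Adm (1.49 ± 0.30), Ndrg1 (1.38 ± 0.36) and Ankrd37 (1.37 ± 0.38), all known to respond to low oxygen, and the glycolytic enzyme Pfkl fell (-1.86 ± 0.30). Vegfa read 11.06, 10.62 and 10.42 at day 11, against 7.36, 7.61 and 7.79 at day 5 (adjusted p = 1.37e-07). Of 16 fatty acid oxidation genes the carnitine carrier Slc25a20 rose (1.35 ± 0.16) and Hadha fell (-1.10 ± 0.30; 0.33 with the index as a covariate). Of 17 respiratory chain genes 3 fell, Uqcrc1 (-1.52 ± 0.19), Sdha (-1.10 ± 0.20) and Atp5b (-1.07 ± 0.17), and 1 without day 11 replicate 1. The call was lost for Ndrg1 without day 5 replicate 2 (0.97), Hadha without day 11 replicates 1 or 2 (-0.94 and -1.0), Sdha without day 11 replicate 1 (-0.90) and Atp5b without day 11 replicate 1 (-0.89). Once the index was a covariate, Ankrd37 (0.94), Pfkl (-0.34), Uqcrc1 (-0.63), Sdha (-0.03) and Atp5b (-0.52) were not called.

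Interferon-stimulated genes fell in 6 of 18, among them Bst2 (-1.51 ± 0.24), Irf1 (-1.48 ± 0.26), Ifitm1 (-1.31 ± 0.25), Ifitm3 (-1.13 ± 0.38) and the histocompatibility genes H2-K1 (-1.36 ± 0.31) and H2-D1 (-1.27 ± 0.28), whereas Ifi35 rose (1.68 ± 0.34). After cyclic loess 3 of the 18 fell and 3 rose. The probe sets of H2-K1 and H2-D1 may read each other's transcripts. Immediate early and stress genes rose in 5 of 16, and in 2 without day 5 replicate 2, with Jun at 2.06 ± 0.28, Ddit3 at 1.39 ± 0.25, Ier3 at 1.30 ± 0.43, Fos at 1.27 ± 0.33 and Atf3 at 1.12 ± 0.29, and Ier2 fell (-1.68 ± 0.24). The limits were not passed by Ifitm1 without day 5 replicate 3 (-0.94), Ifitm3 without day 11 replicates 1 or 2 or day 5 replicates 1 or 2 (-1.10 to -0.68), Ier3 without day 11 replicate 3 or day 5 replicate 2 (1.10 and 1.13), Fos without day 5 replicate 2 (0.93) and Atf3 without day 5 replicates 1 or 2 (0.92 and 0.88). Fitting the index as well, Ifitm3 (0.03), H2-K1 (-0.97), H2-D1 (-1.39), Ifi35 (1.37), Fos (1.54), Atf3 (0.56) and Ier2 (-0.91) were not called.

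The same interval was compared with that in the other lines by testing the difference between the changes. Within R1, 7.1% of genes rose and 4.53% fell, and within 3F 6.16% rose and 10.8% fell. Both comparisons use the same 4F arrays and are given side by side. A difference of changes does not show at which day the lines differed. On the first principal component the day 5 arrays of 4F were at -43.48, -44.2 and -19.28. Those of R1 were at -1.53, 8.49 and 29.19, and those of 3F at 1.37, 15.36 and 10.84. The day 11 arrays were at 39.81, 31.31 and 48.91 in 4F. In R1 they were at 67.01, 67.82 and 82.78, and in 3F at 86.32, 76.58 and 86.45. The change in 4F differed from that in R1 for 1222 genes (6.72%), 350 more positive (1.92%) and 872 more negative (4.79%) in 4F, and from that in 3F for 1295 genes (7.12%), 699 more positive (3.84%) and 596 more negative (3.28%). After median centring, cyclic loess and quantile normalization the more positive genes made up 46.4%, 49.4% and 46.0% of the differences from R1, against 28.6% of them as deposited, and after median centring 62.9% of those from 3F, against 54.0%. Counts also moved with single arrays. Without 4F day 5 replicates 1 or 2 or 4F day 11 replicate 1, 203, 213 and 212 genes were more positive than in R1, and 485 more negative without the last. Without 4F day 5 replicates 1 or 2, 456 and 462 were more positive than in 3F, and 417 and 1116 without 3F day 11 replicates 1 or 2.

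Several genes rose in 4F while they fell in both other lines. Sox17 changed by 2.29 ± 0.43 in 4F, -1.86 ± 0.43 in 3F and -1.81 ± 0.43 in R1, a difference of 4.10 ± 0.60 from R1 (adjusted p = 0.00028) and of 4.15 ± 0.60 from 3F (adjusted p = 0.000185). Bmp2 changed by 2.26 ± 0.49 in 4F, -2.11 ± 0.49 in 3F and -1.91 ± 0.49 in R1 (differences 4.17 ± 0.69 from R1 and 4.37 ± 0.69 from 3F; adjusted p = 0.000792 and 0.000422). Bmp5 changed by 2.27 ± 0.49, -2.08 ± 0.49 and -2.09 ± 0.49 in the same order (adjusted p = 0.000545 and 0.000431). Spink1 and Dkk1 were also more positive in 4F than in either line.

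Cardiac transcription factors differed in that direction, 6 more positive and 1 more negative than in R1 and 10 and 1 than in 3F. Tbx2 changed by 2.84 ± 0.40 in 4F, -1.97 ± 0.40 in 3F and -0.81 ± 0.40 in R1 (adjusted p = 0.000464 for R1 and 1.64e-05 for 3F). Tbx3, a T-box factor of the conduction system and of early endoderm, was not called in 4F (0.82 ± 0.48) and fell in 3F (-4.25 ± 0.48) and R1 (-3.26 ± 0.48), with differences of 4.08 ± 0.67 from R1 and 5.07 ± 0.67 from 3F (adjusted p = 0.000792 and 6.79e-05). Tbx20 changed by 3.80 ± 0.66 in 4F, 0.00 ± 0.66 in 3F and 0.47 ± 0.66 in R1 (adjusted p = 0.025 for R1 and 0.0109 for 3F). Hand2 and Isl1 were more positive in 4F too, with differences of 2.81 ± 0.63 and 2.18 ± 0.52 from R1 and 2.59 ± 0.63 and 3.10 ± 0.52 from 3F. Mef2c was the member that was more negative, with a change of 2.17 ± 0.32 in 3F and 1.91 ± 0.32 in R1. Tbx3 was called without day 5 replicate 3 (1.72). The difference from R1 was not called for Tbx20 without 4F day 11 replicate 3, 4F day 5 replicates 1 or 2, R1 day 11 replicates 1 or 2 or R1 day 5 replicate 3 (2.71 to 3.25) and Isl1 with the index as a covariate (1.64).

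Contractile genes differed in the other direction, 8 of 36 more negative in 4F than in R1, and 6 more negative and 1 more positive than in 3F. Myh7, the slow cardiac myosin, changed by -0.43 ± 0.40 in 4F, 2.46 ± 0.40 in 3F and 1.55 ± 0.40 in R1 (differences -1.98 ± 0.56 from R1 and -2.89 ± 0.56 from 3F; adjusted p = 0.0266 and 0.00252). Myh6 changed by -1.63 ± 0.72 in 4F, 1.16 ± 0.72 in 3F and 2.22 ± 0.72 in R1 (adjusted p = 0.0194 for R1 and 0.0783 for 3F). Myom1 changed by 1.06 ± 0.35, 3.16 ± 0.35 and 3.08 ± 0.35 in the same order (adjusted p = 0.0123 and 0.00882). For Tnnt2 the change was 1.96 ± 0.65 in 4F, 3.67 ± 0.65 in 3F and 4.69 ± 0.65 in R1, and the difference was not called in either (adjusted p = 0.0629 and 0.226). The list of contractile genes had 9 rises in 4F, 15 in 3F and 19 in R1. No difference from R1 was called for Myh7 without 4F day 11 replicate 1, 4F day 5 replicates 1 or 2, R1 day 11 replicates 1 or 2 or R1 day 5 replicate 1 (-2.02 to -1.57), Myh6 without 4F day 11 replicate 1, 4F day 5 replicate 2 or R1 day 11 replicates 1 or 2 (-3.70 to -2.99) and Myom1 with the index as a covariate (-0.68). Tnnt2 differed from R1 by the test without 4F day 11 replicate 3 or R1 day 5 replicate 3 (-3.61 and -3.59). The difference from 3F was not called for Myom1 with the index as a covariate (-1.05). Myh6 differed from 3F by the test without 3F day 11 replicate 3 (-3.47). Tnnt2 differed from 3F by the test without 4F day 11 replicate 3 (-2.58).

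Smooth muscle genes were more negative than in R1 in 3 of 16, and 3 were more positive and 1 more negative than in 3F. Actg2 changed by 1.60 ± 0.64 in 4F, 6.91 ± 0.64 in 3F and 6.86 ± 0.64 in R1 (adjusted p = 0.00111 for R1 and 0.000861 for 3F). Upk3b changed by 0.08 ± 0.36 in 4F, 4.72 ± 0.36 in 3F and 4.50 ± 0.36 in R1 (adjusted p = 2.49e-05 and 9.15e-06), and Wt1 and Tcf21 were also more negative than in both lines. For Tcf21 the difference from R1 had an adjusted p of 0.0327, and of 0.0581 with the replicate number as a block. Their epicardial and mesothelial list held 2 more positive and 3 more negative than R1, and 3 and 4 than 3F. Cd34, of vessels and blood progenitors, changed by -0.38 ± 0.41 in 4F, 4.51 ± 0.41 in 3F and 3.58 ± 0.41 in R1 (adjusted p = 0.000269 and 1.88e-05). The endothelial list held 5 more negative and 1 more positive member than R1, and 7 and 1 than 3F. No difference from R1 was called for Tcf21 without 4F day 11 replicate 1, 4F day 5 replicates 1 or 3, R1 day 11 replicates 1 or 2 or R1 day 5 replicates 1 or 2 (-2.52 to -1.93) or with the index as a covariate (-2.13).

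Of 20 leukocyte genes, 12 were more negative in 4F than in R1, where 13 rose, and 1 was more negative than in 3F, where 3 rose. Irf8, a factor of macrophages outside that list, fell in 4F (-1.10 ± 0.25) and rose by 3.34 ± 0.25 in R1 and 1.49 ± 0.25 in 3F (differences -4.44 ± 0.35 and -2.60 ± 0.35; adjusted p = 2.81e-07 and 9.27e-05). Coro1a fell in 4F and rose in R1 (2.03 ± 0.46), with a difference of -4.44 ± 0.66 (adjusted p = 0.00029), and that from 3F was not called (-1.66 ± 0.66; adjusted p = 0.1). The test was not passed by Irf8 without day 11 replicate 2 or day 5 replicate 1 (-0.95 each). Irf8 (-0.88) was not called in the fit with the index. Coro1a differed from 3F by the test without 3F day 11 replicate 3, 4F day 11 replicate 3 or 4F day 5 replicate 3 (-2.06 to -1.99) or with the index as a covariate (-2.46).

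Small proteoglycans of the matrix rose in all lines, by less in 4F. Lum changed by 4.71 ± 0.50 in 4F, 8.44 ± 0.50 in 3F and 8.14 ± 0.50 in R1 (adjusted p = 0.00406 for R1 and 0.00188 for 3F). Dcn changed by 3.52 ± 0.41, 7.32 ± 0.41 and 7.01 ± 0.41 in the same order (adjusted p = 0.000869 and 0.000334). Col3a1 did not differ by the test, with changes of 7.54 ± 0.59, 8.62 ± 0.59 and 7.99 ± 0.59 (differences -0.46 ± 0.83 from R1 and -1.08 ± 0.83 from 3F). Of 34 fibroblast genes 6 were more negative than in R1, and 5 more negative and 2 more positive than in 3F. The difference from R1 was not called for Lum with the index as a covariate (-1.73).

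Some genes that rose in 4F had a more positive change there than in both other lines. Igf2 changed by 4.91 ± 0.58 in 4F, 1.14 ± 0.58 in 3F and 1.56 ± 0.58 in R1 (adjusted p = 0.0117 for R1 and 0.00505 for 3F). Snai2 changed by 4.57 ± 0.49, 0.81 ± 0.49 and 0.98 ± 0.49 (adjusted p = 0.00249 and 0.00154), and Ahnak, a large scaffold protein, by 4.39 ± 0.48, 0.36 ± 0.48 and 0.26 ± 0.48 (adjusted p = 0.00078 and 0.000763). Vegfa changed by 3.12 ± 0.31, 0.63 ± 0.31 and 0.53 ± 0.31 (adjusted p = 0.000866 and 0.000962). Apoc2 changed by 3.15 ± 0.31, 0.70 ± 0.31 and 0.51 ± 0.31 (adjusted p = 0.000858 and 0.00132). Afp rose in all lines, less in 4F (3.78 ± 0.38) than in 3F (6.23 ± 0.38) or R1 (5.85 ± 0.38; adjusted p = 0.0054 for 3F and 0.0164 for R1). No difference from R1 was called for Afp without R1 day 11 replicates 1 or 2 (-1.69 and -1.82).

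Dnmt3b and Pou5f1 fell in all 3 lines. Dnmt3b changed by -3.67 ± 0.33 in 4F, -3.71 ± 0.33 in 3F and -3.62 ± 0.33 in R1, and Pou5f1 by -2.43 ± 0.52, -2.72 ± 0.52 and -2.83 ± 0.52. The differences of Pou5f1 were 0.39 ± 0.73 from R1 and 0.29 ± 0.73 from 3F, with adjusted p of 0.804 and 0.817. Pim2 fell more in 4F (-4.37 ± 0.48) than in 3F (-1.31 ± 0.48) or R1 (-2.23 ± 0.48; adjusted p = 0.00577 for 3F, and 0.0447 for R1 or 0.0537 with the replicate number as a block). The difference from R1 was not called for Pim2 without 4F day 11 replicates 1 or 2, 4F day 5 replicates 1 or 2, R1 day 11 replicates 1 or 2 or R1 day 5 replicates 2 or 3 (-2.19 to -1.49).

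**Figure D5:**
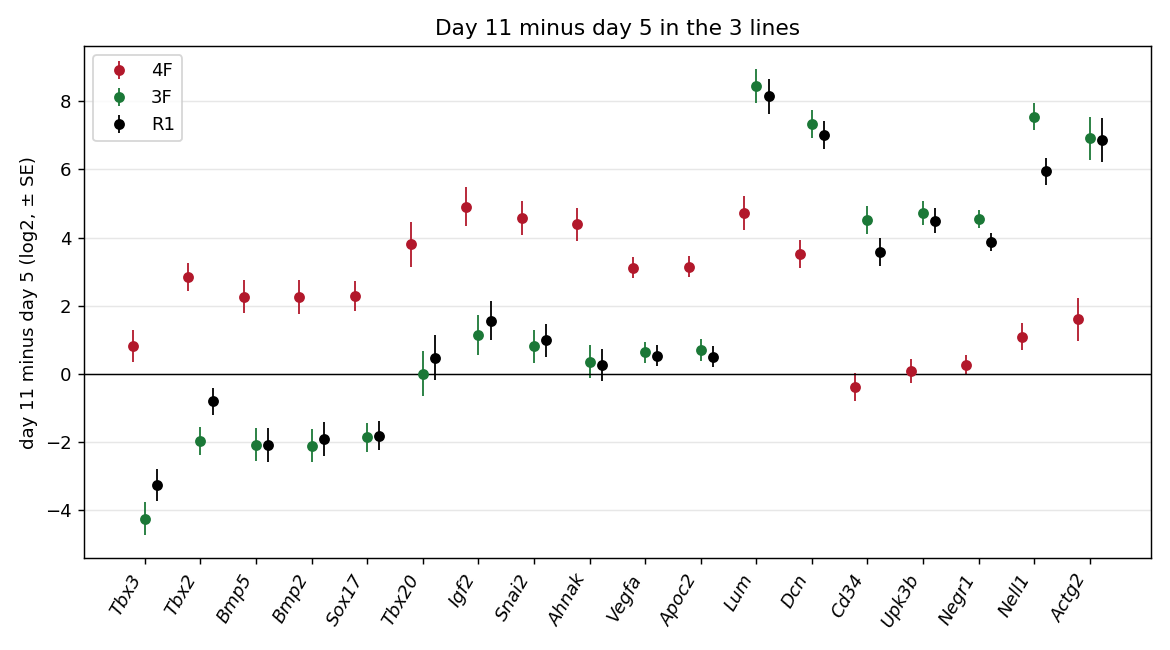
Day 11 minus day 5 (log2, y axis, with standard error) of 18 genes in 4F (red), 3F (green) and R1 (black). From Tbx3 to Apoc2 the 4F change is the most positive, at 2.29 for Sox17 against -1.86 and -1.81, and from Lum to Actg2 it is the least positive.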

How the data were processed

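The deposited table holds log2 expression values of 27 mouse arrays, made by the authors with RMA per the submitters' processing notes, which name no version. Per the labels, biotinylated cRNA was made from 6 ug of total RNA. Raw scanner files were not used here. Of 45101 probe sets, 64 were controls, 34945 had 1 gene symbol in the platform annotation, 932 several and 9160 none; the 34945 covered 18193 genes, and for the 9010 of these that had more than 1 probe set the brightest over all arrays was used. No array had a twin with identical values, and no column belonged to no sample.

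The deposited values were taken as they stand, with no further normalization or filter. limma 3.58.1 in R 4.3.3 was fitted with 1 mean for each of 9 groups, and contrasts were tested with the moderated test and Benjamini-Hochberg adjustment over all 18193 genes. Line differences are contrasts of 2 changes in the same fit. The fit was tested on simulated data.

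Array number, 3 in a group, limits the precision. The main fit did not pair the 4F samples by replicate number. Deviations of same-numbered day 11 and day 5 arrays from their group means correlated at 0.129, 0.105 and 0.152 over genes. Differently numbered arrays correlated between -0.146 and 0.095, and the replicate number as a block was used only as an alternative. Genes were named by a rule: the 15 largest rises and the 15 largest falls among calls without overlap of the groups, up to 5 members of each list with the largest change, the 8 most positive and 8 most negative differences from each line, and a set of marker genes named always, provisional names left out. Other members were named after their values were seen. The members of the 40 lists and the rule were chosen with earlier results of these data known. Alternatives were median centring, cyclic loess, quantile normalization, other choices of probe set, dim genes left out, array weights, a trend and robust fit, treat, the 3′ minus 5′ index as a covariate, the replicate number as a block, only the compared arrays, each array left out, and other thresholds. 3 genes of the always-named set had no probe set of their own and were not analysed here.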

Additional observations from a re-analysis of the deposited data

Results flagged for a closer look

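With 3 arrays in a group no single array was tested as an outlier. The results below are differences between lines in the day 11 minus day 5 change, each past the limma test of the difference itself, given as 4F minus R1 and then 4F minus 3F (log2) unless 1 line is named. Both differences use the same 4F arrays and do not show at which day the lines differed.

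More positive in 4F were Tbx3 at 4.08 and 5.07, Tbx2 at 3.65 and 4.81, Tbx20 at 3.33 and 3.80, Hand2 at 2.81 and 2.59 and Isl1 at 2.18 and 3.10. Among ligands, targets and antagonists of BMP and Wnt, Bmp2 was at 4.17 and 4.37, Bmp5 at 4.36 and 4.35, Msx2 at 3.54 and 4.94 and Dkk1 at 3.70 and 4.92. Sox17 was at 4.10 and 4.15 and Spink1 at 4.18 and 2.83. Igf2 was at 3.35 and 3.77, the scaffold protein Ahnak at 4.13 and 4.03, Rgs5, a pericyte regulator of G protein signalling, at 4.03 and 4.82, the membrane peptidase Mme at 2.90 and 4.98, and Ifi202b at 1.41 and 2.10. Plac1, of the placenta, differed from 3F alone, at 4.70.

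More negative were Actg2 at -5.26 and -5.31, the matrix protein Spon1 at -5.01 and -4.85, Nell1 at -4.85 and -6.46, Islr at -4.58 and -4.09, Lum at -3.43 and -3.73, Upk3b at -4.41 and -4.64, Wt1 at -1.95 and -1.88 and Tcf21 at -2.49 and -3.19. The receptor Epha3 was at -4.22 and -4.42, the neural adhesion protein Negr1 at -3.60 and -4.29 and Cd34 at -3.97 and -4.89. Lyz1, lysozyme, was at -4.83 and -3.29 (the second with an adjusted p of 0.0686 once the replicate number was a block), Irf8 at -4.44 and -2.60, and Coro1a at -4.44 against R1 alone. Myh7 was at -1.98 and -2.89 and Mef2c at -1.53 and -1.78. Afp was at -2.07 and -2.45, Pim2 at -2.15 and -3.06, and Nepn, a small proteoglycan, at -4.66 against 3F alone.

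These differences were computed on the deposited scale, where the 3′ minus 5′ index was highest in 4F at day 11, with a mean of 2.69, against 1.94 for R1 and 1.55 for 3F. Its part was not tested, and values with it as a covariate are among the alternatives.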

How the results depend on the processing

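The 1212 genes higher and 1666 lower at day 11 in 4F became 1093 to 1323 and 1373 to 1875 when 1 array was left out, and with the replicate number as a block 1210 and 1665. Higher genes numbered 1987 over all probe sets, 1889 with the 3′ minus 5′ index as a covariate and 2272 with no minimum fold. Lower genes numbered 968 after cyclic loess and 4712 with no minimum fold. Of 248 genes named by the rule, 151 had the same call under every alternative, and 159 of 192 called kept it whichever 4F array was left out. The index covariate changed most calls: 190 were the same, 44 lost, 10 gained and 4 turned in direction, Hadha to 0.33, Rarg to 0.41, Tek to 2.84 and Tmprss2 to -0.52. Of list members outside that rule, Ccne2, Cldn4, Foxa1, Ifitm3, Sesn2, Cox7a1, Kit and Ndufb8 also changed sign with it. Aplnr ranged from -1.90 to 1.46 when 1 4F array was left out, 1.46 without day 5 replicate 3. The causes were not tested.

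Differences from R1 moved more. The 350 genes more positive in 4F became 542 after cyclic loess, 551 after quantile normalization, 978 over all probe sets, 175 with treat, 705 with array weights, 630 with the index, 597 without replicate 3 of 4F at both days, 129 at an adjusted p under 0.01 and 203 to 502 when 1 array was left out. The 872 more negative became 555 after cyclic loess, 499 with treat, 1314 with array weights, 496 with the index, 1393 without replicate 3 of 4F at both days, 412 at 0.01, 1453 with no minimum fold and 485 to 1286 when 1 array was left out. With the index 56.0% of them were more positive.

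Of differences from 3F, the 699 more positive became 1225 over all probe sets, 406 with treat, 1084 with the index, 273 with only the compared arrays, 312 at 0.01 and 417 to 1116 when 1 array was left out. The 596 more negative became 387 with treat, 998 with array weights, 317 with only the compared arrays, 944 without replicate 3 of 4F at both days, 332 at 0.01, 1132 with no minimum fold and 432 to 844 when 1 array was left out. With the index 66.3% were more positive.

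With the replicate number as a block, differences numbered 333 and 847 from R1 and 706 and 609 from 3F. Among the genes named by the rule the block changed the calls of Myh6 (-1.63; adjusted p = 0.0403), Morc1 (0.0489), Tcf21 (0.0698), Lmo2 (0.0543) and Mme (0.0667), and among the differences between lines singled out above those of Tcf21 and Pim2 from R1 and of Lyz1 from 3F, and no other of these calls. The block with only the compared arrays, chosen after seeing the data, gave 1177 higher and 1637 lower. Signal near background limits genes under the array median.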
